A study of Mus musculus with 5 samples.

Results

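Integrins are cell surface receptors made of an alpha and a beta subunit, and laminins are cross-shaped proteins of the basement membrane made of an alpha, a beta and a gamma chain. The 2 families meet in the vessel wall, where laminin-binding integrins anchor endothelial and smooth muscle cells to the basement membrane and other integrins hold collagen, fibronectin and vitronectin. Each alpha subunit sets what a receptor binds, and most of them share Itgb1 as partner, whereas Itgav also pairs with Itgb3, Itgb5, Itgb6 or Itgb8. Members were all genes whose single symbol in the platform annotation names an integrin alpha or beta subunit or a laminin chain, each read from its probe set with the highest mean intensity over the arrays. The rule found 35 members among 18194 genes, 25 integrin subunits and 10 laminin chains.

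RNA was measured, at 24 h by title, on 5 one-colour oligonucleotide arrays of cultured cells from the C57BL/6J background, labelled as aortic endothelial cells, while the series title speaks of smooth muscle cells. The titles put 3 arrays in the control group and 2 in the TNF-LTBR group. Both groups carry 1 treatment text, in which stimuli are dissolved in PBS and the cells receive PBS alone, so membership of the TNF-LTBR group is known from titles and its agents and doses are not stated. Both groups were grown in the same serum-rich medium with heparin and ECGS. Neither the age of the mice nor the number of animals or separate cultures is stated, so the p-values reflect the spread among these arrays alone, which may be technical.

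Array medians lay between 109.9 and 120.7. The arrays did not sort by title: over the genes tested, control array 2 correlated most with TNF-LTBR array 1 (r = 0.976) and control array 3 with TNF-LTBR array 2 (r = 0.978), against 0.900 between both TNF-LTBR arrays and 0.893 between control arrays 2 and 3. The labelled cell type was not borne out by all of its markers. Of 18 endothelial markers, 7 had a mean over the 5 arrays above the brightness minimum of 7.17 on the log2(intensity + 16) scale used for all levels here, among them Eng (10.61 to 10.87), Plvap (8.70 to 9.60) and Kdr (8.08 to 8.57). Vwf lay between 4.19 and 4.54, and Tie1, Pecam1 (6.10 to 7.75) and Cdh5 (5.48 to 7.98) also had means under the minimum. Of 12 smooth muscle markers 8 and of 11 fibroblast and pericyte markers 11 had means above it, with wide ranges between arrays for some, such as Tagln (5.15 to 11.70) and Thy1 (7.17 to 13.58). In such bulk samples, fewer cells of a type and less RNA per cell cannot be told apart.

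No member passed the test between TNF-LTBR and control, and for 14 of the 20 members tested the arrays of both groups overlapped. Itga7, Itga10, Itgb5 and Lamb1 lay lower on both TNF-LTBR arrays than on any control, and Itgav and Itga2 lay higher. Itga7, a laminin-binding subunit of muscle cells, had the largest separation, at 0.567-fold. Of the 35 members, 20 passed the brightness minimum and were tested, 14 integrin subunits and 6 laminin chains. The test was limma's moderated linear model over 10916 genes with Benjamini-Hochberg adjustment, and 0 of these genes (0%) had an adjusted p under 0.05. An unadjusted p under 0.05 was reached by 190 genes (1.74%) and by 1 member, Itga7.

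The TNF-LTBR mean was lower than the control mean for 14 of the 20 members (70.0%) and for 50.7% of all genes tested. The median difference was -0.18 on the log2 scale over the members and -0.0036 over all genes tested. The groups did not overlap for 6 members, and for 13.2% of all genes tested. Both TNF-LTBR arrays lay below all controls for 4 members, where 6.32% of all genes did so, and above all controls for 2 members, where 6.93% did. The tilt moved with 1 array. TNF-LTBR array 1 held the lowest value of 12 members (60% against 24.3% of all genes), and TNF-LTBR array 2 that of 1 member. Without TNF-LTBR replicate 1 the median over the members was -0.099 and 11 of 20 were lower (49.5% of all genes). In that fit 4 members were above all controls (20% against 19.9% of all genes) and 5 below (25% against 20.5%). Without TNF-LTBR replicate 2 the median was -0.25, and 12 members were below all controls (60% against 27% of all genes) and 3 above (15% against 26.7%).

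**Figure D1:**
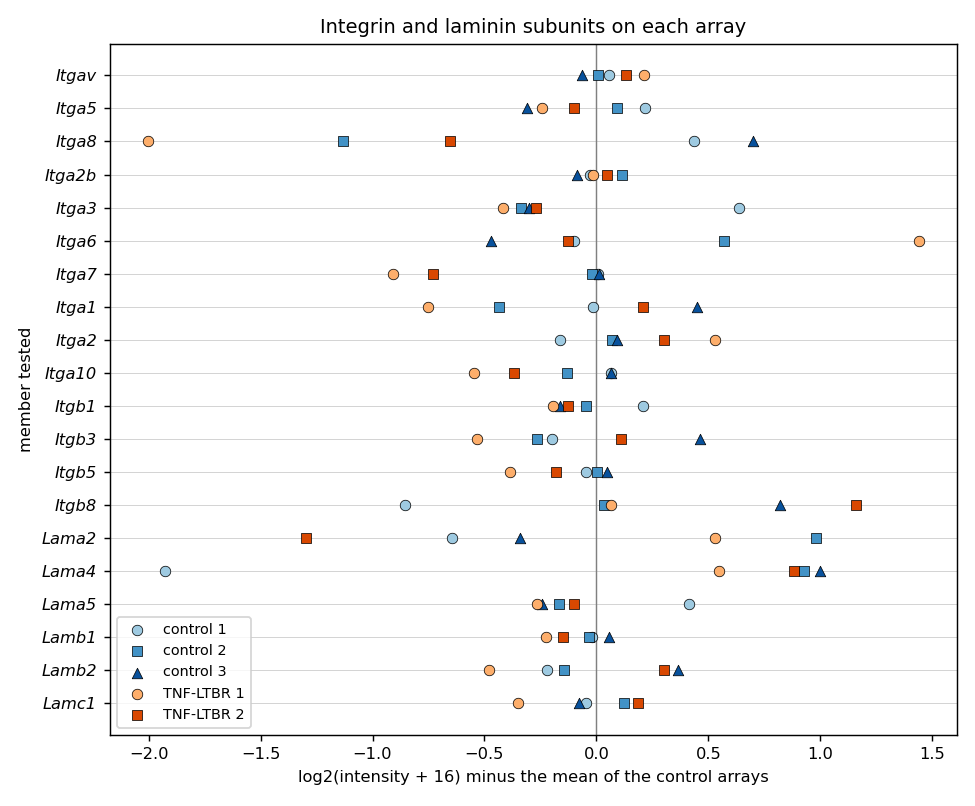
Each row is 1 of the 20 members tested and each point 1 array, plotted as log2(intensity + 16) minus the mean of the 3 control arrays (blue points control, orange points TNF-LTBR). Itga7 is the member with the tightest controls and both orange points well to the left, and TNF-LTBR array 1 is the leftmost point for 12 members.

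Among the laminin-binding alpha subunits, Itga7 read 8.85, 8.82 and 8.85 on the controls (arrays 1, 2 and 3, in this order throughout) and 7.93 and 8.11 with TNF-LTBR (arrays 1 and 2). The controls were nearly level and both TNF-LTBR arrays lay below them, with a gap of 0.71 between the nearest arrays. In intensity the probe set read 444.8, 436.6 and 446.4 on the controls and 228.6 and 260.3 with TNF-LTBR. The difference was -0.82 with a standard error of 0.16 and a 95% interval of -1.22 to -0.42 (limma, unadjusted p = 0.00304, adjusted p 0.999). Only 0.55% of all genes tested had a smaller SD over the control arrays than Itga7, at 0.017. The difference stayed between -0.91 and -0.73 when any 1 array was left out. Itga7 was read by 1 probe set, whose suffix (_a_at) marks a type that was left out in 1 alternative, so no second probe set of this gene was available to set beside it.

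Itga7 is also a known marker of muscle, and the smooth muscle list was read beside it. The mean of its 12 markers was 9.11, 8.60 and 7.91 on the controls and 8.42 and 7.81 with TNF-LTBR, so the groups overlapped. Their summed intensity ran from 12625 to 28168 on the controls and from 12327 to 14606 with TNF-LTBR. Acta2, smooth muscle actin, read 12.89, 13.00 and 11.03 on the controls and 12.03 and 11.02 with TNF-LTBR, and Tagln, an actin-binding protein of smooth muscle, 11.70, 11.20 and 6.46 on the controls and 10.38 and 5.15 with TNF-LTBR. Both markers were low on control array 3, but not all markers of the list were lowest there among the controls. Smtn read 10.10 on control array 2 and 10.64 on control array 3, and Lmod1 read 7.12 and 8.16. Of the 8 markers tested, 6 had a lower and 2 a higher mean and 0 passed (limma, smallest adjusted p 0.999). Tpm2 lay below all controls, and Des and Synpo2 lay above them, where 6.32% and 6.93% of all genes tested did so. A lower mean was found for 50.7% of all genes tested. Myh11, a defining marker of contractile smooth muscle, lay between 4.36 and 5.84 and was not tested. The part of smooth muscle content in the Itga7 values was not tested.

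**Figure D2:**
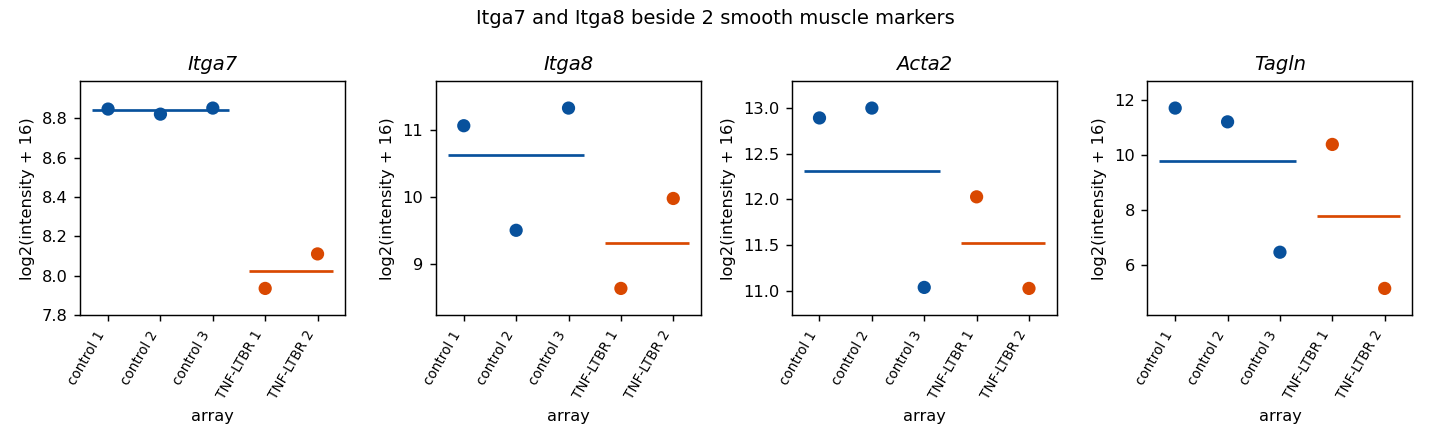
Levels as log2(intensity + 16) of Itga7, Itga8, Acta2 and Tagln on each array (blue control, orange TNF-LTBR), with horizontal lines at the group means; each panel has its own axis, which does not start at 0. Itga7 splits by title with controls at 8.82 to 8.85, while the other 3 genes vary as much among controls as between groups.

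Itga6, which forms laminin receptors of endothelial and epithelial cells, read 9.30, 9.98 and 8.93 on the controls and 10.84 and 9.28 with TNF-LTBR. The groups overlapped, with 1 high array in TNF-LTBR, and the difference of 0.66 (95% interval -0.73 to 2.05) turned to -0.13 without TNF-LTBR replicate 1. Itga3, another laminin receptor subunit, read 12.43, 11.45 and 11.49 on the controls and 11.37 and 11.52 with TNF-LTBR. Control array 1 stood above the other 4 arrays, and the difference of -0.34 ran from -0.51 without control replicate 2 to -0.024 without control replicate 1.

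The 4 RGD-binding alpha subunits recognise a short Arg-Gly-Asp motif in fibronectin, vitronectin or fibrinogen. Itgav read 13.55, 13.50 and 13.43 on the controls and 13.70 and 13.62 with TNF-LTBR. Both TNF-LTBR arrays were highest, but the gap to the nearest control was 0.073 and the difference 0.17 (95% interval -0.068 to 0.41, limma, unadjusted p = 0.127, adjusted p 0.999). Itga5, the fibronectin receptor subunit, read 8.89, 8.77 and 8.36 on the controls and 8.43 and 8.58 with TNF-LTBR, with overlapping groups and a difference of -0.17. Itga2b, the platelet fibrinogen receptor subunit, read 8.50, 8.64 and 8.44 on the controls and 8.51 and 8.58 with TNF-LTBR. Its difference of 0.015 (95% interval -0.39 to 0.42) was the smallest of the 20 and changed sign with median centring (-0.014) and when control replicate 3 (-0.028) or TNF-LTBR replicate 2 (-0.017) was left out.

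Itga8, which pairs with Itgb1 and is prominent in smooth muscle and mesangial cells, had the largest difference of any member tested, -1.33 (0.398-fold). It read 11.07, 9.50 and 11.33 on the controls and 8.63 and 9.98 with TNF-LTBR. Control array 2 fell below TNF-LTBR array 2, so the groups overlapped. The 95% interval reached from -3.07 to 0.41 (limma, unadjusted p = 0.108, adjusted p 0.999). Leaving out TNF-LTBR replicate 1 gave -0.66, and leaving out TNF-LTBR replicate 2 gave -2.0. The second Itga8 probe set read 9.75, 8.17 and 9.89 on the controls and 7.21 and 8.75 with TNF-LTBR, which is the same order of arrays.

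Of the 3 collagen-binding subunits, 2 had a lower and 1 a higher mean. Itga10, a collagen receptor subunit of cartilage, read 8.17, 7.97 and 8.17 on the controls and 7.56 and 7.74 with TNF-LTBR. Both TNF-LTBR arrays were below the controls with a gap of 0.24, and the difference was -0.46 (95% interval -0.94 to 0.025, limma, unadjusted p = 0.0588, adjusted p 0.999). Itga2, the collagen receptor subunit of platelets and epithelia, read 7.02, 7.25 and 7.28 on the controls and 7.71 and 7.49 with TNF-LTBR. It was higher on both TNF-LTBR arrays with a gap of 0.21 and a difference of 0.42 (95% interval -0.15 to 0.99, limma, unadjusted p = 0.121, adjusted p 0.999). Its values lay close to the brightness minimum, and that of control array 1 was under it. Itga1, the third collagen receptor subunit here, read 7.84, 7.41 and 8.30 on the controls and 7.10 and 8.06 with TNF-LTBR, and its difference of -0.27 turned to 0.21 without TNF-LTBR replicate 1.

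Of the 6 beta subunits outside the leukocyte group, 4 were tested, 3 with a lower mean. Itgb5, the partner of Itgav in vitronectin receptors, read 12.78, 12.83 and 12.87 on the controls and 12.44 and 12.65 with TNF-LTBR. The controls were tight (SD 0.047) and both TNF-LTBR arrays lay below them, by 0.28 on average (95% interval -0.57 to 0.0053, limma, unadjusted p = 0.0530, adjusted p 0.999). Itgb1, the common partner, read 13.51, 13.25 and 13.13 on the controls and 13.10 and 13.17 with TNF-LTBR, a difference of -0.16 with overlapping groups that ran from -0.24 without control replicate 3 to -0.054 without control replicate 1. Itgb3, the other vitronectin receptor partner, read 9.69, 9.63 and 10.36 on the controls and 9.36 and 10.01 with TNF-LTBR, and its difference of -0.21 turned to 0.021 without control replicate 3 and to 0.11 without TNF-LTBR replicate 1. Itgb8, the Itgav partner that activates latent TGF-beta, read 8.46, 9.34 and 10.13 on the controls and 9.38 and 10.47 with TNF-LTBR, spread over 2.02 on the log2 scale, with a difference of 0.61 that ran from 0.066 without TNF-LTBR replicate 2 to 1.16 without TNF-LTBR replicate 1.

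**Figure D3:**
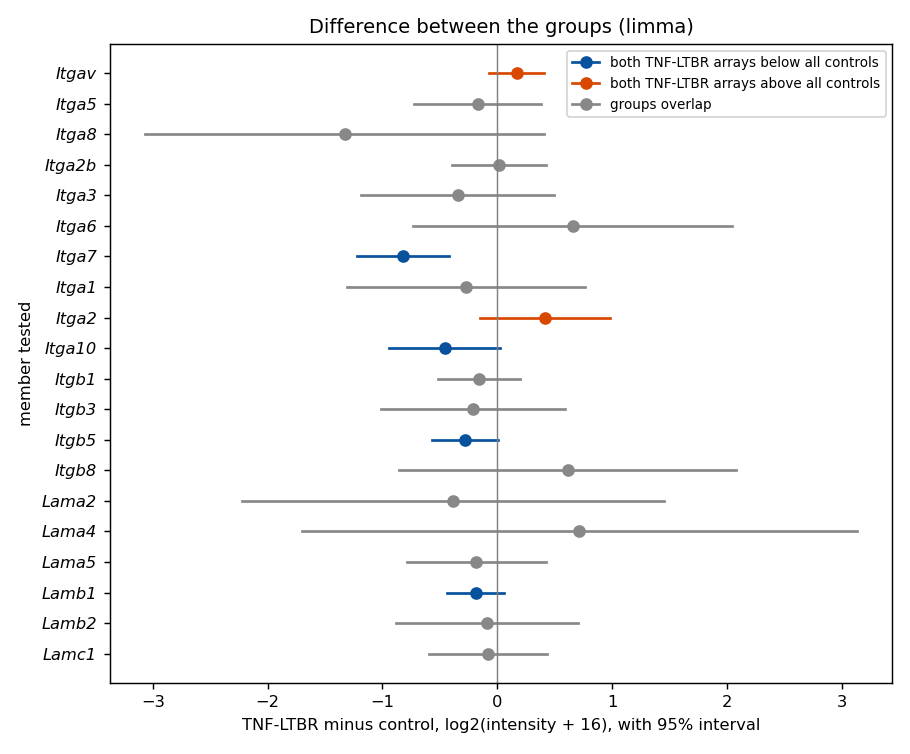
Differences of TNF-LTBR minus control on the log2(intensity + 16) scale for the 20 members tested, with limma's 95% intervals (unadjusted); colours mark whether both TNF-LTBR arrays lay outside the controls. The interval of Itga7, -1.22 to -0.42, is the 1 that leaves out 0, and the intervals of Itga8, Lama2 and Lama4 are the widest.

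Among the laminin beta and gamma chains, Lamb1, the beta chain of most vascular laminins, read 12.89, 12.88 and 12.97 on the controls and 12.69 and 12.76 with TNF-LTBR. Both TNF-LTBR arrays were below the controls with a gap of 0.12 and a difference of -0.19 (95% interval -0.44 to 0.062, limma, unadjusted p = 0.112, adjusted p 0.999). Lamb2, the alternative beta chain, read 9.40, 9.47 and 9.98 on the controls and 9.14 and 9.92 with TNF-LTBR, and its difference of -0.089 turned to 0.093 without control replicate 3 and to 0.30 without TNF-LTBR replicate 1. Lamc1, the gamma chain that most laminins share, read 10.39, 10.56 and 10.36 on the controls and 10.08 and 10.62 with TNF-LTBR, with a difference of -0.083 (95% interval -0.60 to 0.43) that was 0.19 without TNF-LTBR replicate 1.

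No laminin alpha chain separated by title. Lama4, an alpha chain of endothelial basement membranes, read 7.43, 10.28 and 10.35 on the controls and 9.90 and 10.24 with TNF-LTBR. Control array 1 was far below the other 4 arrays, and the control SD of 1.67 was larger than that of 98.9% of all genes tested. The difference of 0.71 (95% interval -1.70 to 3.13) turned to -0.25 without control replicate 1. Its second probe set read 6.32 on control array 1 and 7.89 to 9.06 on the other 4 arrays. Lama5, the other alpha chain of endothelial basement membranes, ran the opposite way on that array: 11.23 on control array 1, then 10.65 and 10.57, and 10.55 and 10.72 with TNF-LTBR. Its difference of -0.18 was 0.024 without control replicate 1. The mean of 11 fibroblast and pericyte markers was 10.56 on control array 1 and 11.25 to 11.55 on the other 4. Pdgfra and Dcn were lowest on that array, but not all markers of the list were. Thy1 read 11.34 there and 7.41 on control array 3, and Lum 10.18 there and 9.70 on control array 2. The mean of 12 smooth muscle markers ran the other way, at 9.11 on control array 1 and 7.81 to 8.60 on the other 4. The part of such cells in these values was not tested.

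**Figure D4:**
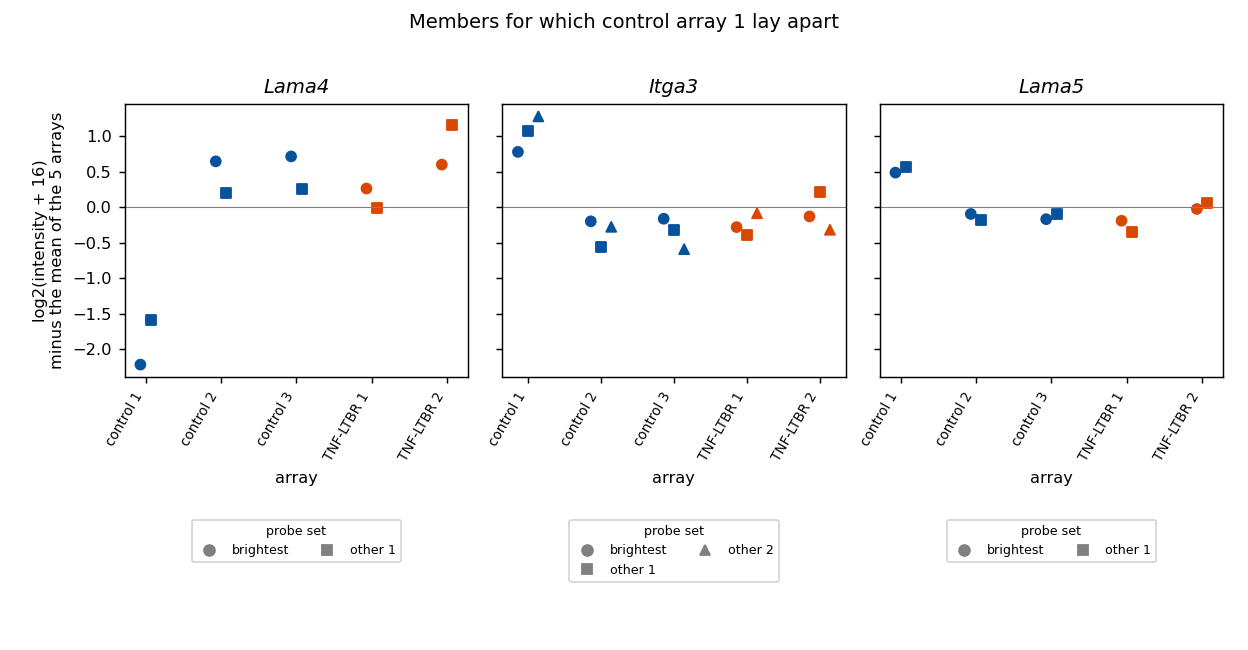
Bright probe sets of Lama4, Itga3 and Lama5 on each array, as log2(intensity + 16) minus the probe set's mean over the 5 arrays (blue control, orange TNF-LTBR; marker shapes are probe sets). Control array 1 is the lowest array for Lama4 and the highest for Itga3 and Lama5 on all probe sets shown.

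Lama2, the alpha chain of muscle and peripheral nerve basement membranes, read 7.80, 9.43 and 8.11 on the controls and 8.98 and 7.15 with TNF-LTBR. Control array 2 and TNF-LTBR array 1 were the high arrays. The difference of -0.38 (95% interval -2.22 to 1.46) was 0.11 without control replicate 2 and turned to 0.53 without TNF-LTBR replicate 2. The same 2 arrays were the high pair for Itga6 and the low pair for Itga8 and Itga1. For 14 of the 20 members (70%) the difference between the TNF-LTBR arrays (array 1 minus 2) had the same sign as that between control arrays 2 and 3 (array 2 minus 3), and for 78.8% of all genes tested. The median control SD was 0.30 over the members and 0.22 over all genes tested. Leukocyte markers followed the same arrays, with a summed intensity over 10 genes of 8104 and 9323 on control array 2 and TNF-LTBR array 1 and 2389 to 4224 on the other 3. Lyz2 gave 3409 and 3934 of these sums. Ptprc (4.82 to 6.51) and Adgre1 were highest on TNF-LTBR array 1. For both, control array 1 (6.47 and 8.73) lay above control array 2 (6.37 and 8.56). Coro1a was highest on TNF-LTBR array 2 and lowest on control array 2. Of 4 lymphatic endothelial markers, Pdpn, which other cells also express, read 12.96 and 13.45 on the pair and 7.89 to 10.25 on the other 3. Flt4 was also highest on the pair, at 7.74 and 8.02, against 6.61 to 7.55 on the other 3. Prox1 and Lyve1 were under the brightness minimum and did not follow the pair. Genes of other lists were also highest on the pair. Thy1 of the fibroblast and pericyte list read 13.58 and 13.12, against 7.17 to 11.34 on the other 3. Emcn of the endothelial list read 9.40 and 8.95, against 6.56 to 7.89. Lum, also of the fibroblast and pericyte list, was lowest on the pair, at 9.70 and 10.13. The part of any cell type in these members' values was not tested.

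Probe sets of the same gene gave a check on the readings, though not an independent one, since they read the same RNA on the same arrays. The 35 members had 76 probe sets. Besides the brightest, 13 tested members had 28 more probe sets, of which 22 had the sign of the brightest. Among the 17 of these above the brightness minimum all 17 did, and among the dim ones the other Itgb3 probe set differed by 0.59 where the brightest differed by -0.21. Sizes could differ among bright probe sets. Itgb1 differed by -0.16 on the brightest and by -0.20 and -0.62 on the other bright ones, and Lamc1 by -0.083 and -0.59. Itgb5 was below all controls on each of its 4 probe sets, with differences of -0.28, -0.45, -0.45 and -0.41. All but the third of these carry a suffix (_x_at or _a_at) of the shared-sequence type. The third, without such a suffix, gave -0.45. Lamb1 was below all controls on 2 of its 3 bright probe sets (-0.19 and -0.29), and the third overlapped at -0.052. Itgav was above all controls on 2 of 3 bright probe sets (0.17 and 0.45), and the third overlapped at 0.45.

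**Figure D5:**
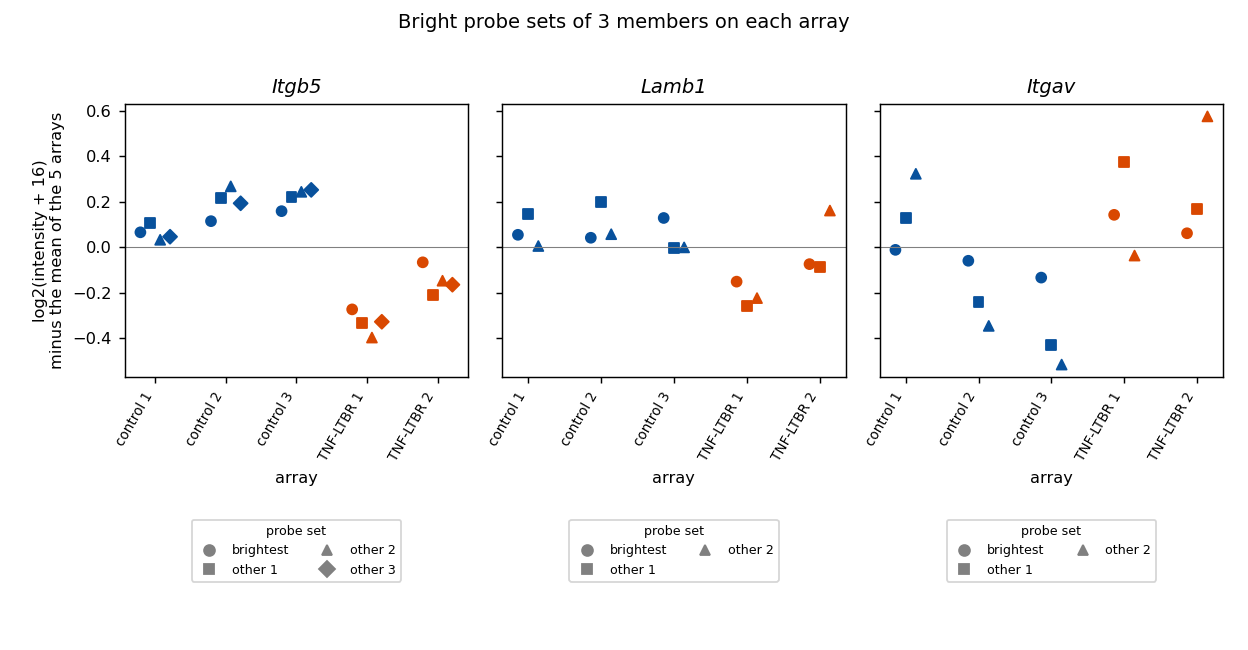
Bright probe sets of Itgb5, Lamb1 and Itgav on each array, as log2(intensity + 16) minus the probe set's mean over the 5 arrays (blue control, orange TNF-LTBR; marker shapes are probe sets). All 4 Itgb5 probe sets are below 0 on both TNF-LTBR arrays, and the third probe set of Lamb1 and of Itgav overlaps between groups.

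These 3 genes had both TNF-LTBR arrays outside the controls on more than 1 bright probe set. The 250 bases before their RefSeq start sites (GRCm38.p6, all on the plus strand) are shown, 5′ to 3′. Each GC box (GGGCGG on either strand) is in capitals. Itgb5 is at chr16:33829415-33829664, Lamb1 at chr12:31265043-31265292 and Itgav at chr2:83724147-83724396.
Itgb5: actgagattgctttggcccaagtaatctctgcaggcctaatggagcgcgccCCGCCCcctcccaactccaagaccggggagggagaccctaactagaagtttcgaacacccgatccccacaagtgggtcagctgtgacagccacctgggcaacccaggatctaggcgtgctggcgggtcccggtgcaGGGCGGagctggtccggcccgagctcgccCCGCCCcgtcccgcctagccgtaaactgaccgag
Lamb1: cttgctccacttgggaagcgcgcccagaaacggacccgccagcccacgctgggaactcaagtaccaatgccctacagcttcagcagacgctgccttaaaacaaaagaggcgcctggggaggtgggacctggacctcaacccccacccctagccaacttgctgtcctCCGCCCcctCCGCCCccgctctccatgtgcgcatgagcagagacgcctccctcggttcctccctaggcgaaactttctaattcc
Itgav: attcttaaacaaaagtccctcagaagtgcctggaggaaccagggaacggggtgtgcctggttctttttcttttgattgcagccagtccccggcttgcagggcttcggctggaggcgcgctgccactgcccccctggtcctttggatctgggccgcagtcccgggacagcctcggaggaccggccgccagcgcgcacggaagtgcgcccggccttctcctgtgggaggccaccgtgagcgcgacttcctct
Itgb5 holds 3 GC boxes and Lamb1 holds 2, while Itgav has none of these letters in the window. In all, 23 members had a promoter entry in RefSeq, with 26 windows of this length. GGGCGG was found in 9 of the 26 (34.6%), against 32.7% of all 32851 windows. CANNTG, the E-box, which reads the same on both strands, was in 21 member windows (80.8%) and 66.2% of all windows. The kappaB consensus, the sequence that NF-kB binds, matched 1 member window, of Lamb3, and 3.9% of all windows. The CArG box, the sequence bound by serum response factor in muscle genes, matched 2, of Itgb6 and Lama2, and 1.47% of all windows. The kappaB and CArG patterns were searched on both strands, and GC box and kappaB patterns can share bases.

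The 15 members under the brightness minimum were not tested. They were Itga4 and Itga9, all 7 leukocyte subunits, Itgb4 and Itgb6, and the laminin chains Lama1, Lama3, Lamb3 and Lamc3. Itga4, which binds Vcam1 and fibronectin, read 7.33, 7.07 and 6.67 on the controls and 7.48 and 6.40 with TNF-LTBR, and Itga9, its close relative, 6.50, 7.19 and 7.21 on the controls and 7.24 and 6.41 with TNF-LTBR. Both overlapped between groups. The highest value of any leukocyte subunit was 7.83, Itgb2, the common leukocyte beta subunit, on control array 2. Itgam, the alpha subunit of the macrophage complement receptor, had intensities of 21.8, 24.7 and 5.3 on the controls and 118.7 and 35.9 with TNF-LTBR. Both TNF-LTBR arrays lay above the controls, but in the fit without a brightness filter the difference of 1.39 (95% interval 0.088 to 2.68) had a limma adjusted p of 1. Itgb2l, a beta subunit-like gene, was above all controls on its brightest probe set and below all of them on another (-1.03), so its direction is not settled.

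Itgb4, the hemidesmosome subunit that pairs with Itga6, lay between 5.10 and 6.33, and Itgb6, an epithelial partner of Itgav, between 5.77 and 6.25. Lama1, an embryonic alpha chain, read 5.75, 4.69 and 4.28 on the controls and 5.68 and 4.29 with TNF-LTBR. The epithelial chains Lama3 (6.69 to 7.42) and Lamb3 (4.83 to 6.21) and the gamma chain Lamc3 (6.71 to 7.19) overlapped between groups as well. Values this dim have no detection call in the deposited table, and a reading near the pseudocount does not show presence or absence.

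Genes that work with these receptors were read from lists. Of 37 genes listed as integrin adaptors and signalling partners, 35 had a probe set and 33 were tested. Of those tested, 0 passed (limma, smallest adjusted p 0.999), 23 had a lower and 10 a higher mean, with a median of -0.088. The lower means made up 69.7% of these genes, against 50.7% of all genes tested. Both TNF-LTBR arrays lay below all controls for 4 of them, where 6.32% of all genes tested did so. They lay above for 2, where 6.93% did. Cd47, a membrane protein that associates with Itgav-Itgb3, read 11.77, 11.83 and 11.95 on the controls and 12.42 and 12.51 with TNF-LTBR. Both TNF-LTBR arrays were above the controls, with a difference of 0.62 (95% interval 0.32 to 0.91, limma, unadjusted p = 0.00279, adjusted p 0.999). Vcl, which encodes vinculin of focal adhesions, read 13.62, 13.38 and 13.24 on the controls and 12.80 and 13.02 with TNF-LTBR, lower on both by 0.50 on average (95% interval -0.89 to -0.11). Parva, the actin-binding partner of the kinase Ilk, was lower as well, at 11.67, 11.67 and 11.55 against 11.37 and 11.36.

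The basement membrane list, with 20 of 22 genes tested, showed 11 lower and 9 higher means and 0 past the threshold, with a median of -0.037. Nid2, which encodes a nidogen that bridges laminin and collagen networks, was the 1 gene with both TNF-LTBR arrays below all controls, at 7.73, 9.03 and 8.81 on the controls and 7.67 and 7.69 with TNF-LTBR, but the gap to control array 1 was 0.039. Nid1, the other nidogen, differed by 0.027 with overlapping groups. Of the other integrin ligands 15 were tested, 10 lower and 5 higher, 0 past the threshold, with a median of -0.084. Vcam1, the ligand of Itga4, was the 1 tested ligand with both TNF-LTBR arrays above all controls. It read 13.70, 13.55 and 13.71 on the controls and 13.81 and 14.02 with TNF-LTBR. Over all genes tested, 50.7% had a lower mean, 6.32% had both TNF-LTBR arrays below all controls and 6.93% had both above.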

How the data were processed

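Array intensities were deposited by the authors on a linear scale, 1 per probe set (45101) and array. GCOS 1.4 is named in the submitters' processing notes; how probes were summarised is not given in the sources used here. A mean trimmed by 2% at each end was 500 on each array. The rule was to use the deposited intensities as they stand if the array medians differed by up to 10%. At 109.9 to 120.7 the medians met it, close to the limit. Probe sets with a single symbol in the platform annotation (34958) were reduced to the brightest per gene, transformed as log2(intensity + 16), and the 60% of genes with the highest mean tested. TNF-LTBR was compared with control (titles) in R 4.3.3 with limma 3.58.1 (lmFit, eBayes with trend, 3 residual degrees of freedom, two-sided, Benjamini-Hochberg over all genes tested, threshold 0.05). An exact permutation of 3 against 2 arrays cannot give p under 0.1. The members and lists were chosen with earlier results of these data known. Members were described by subgroup whatever their result; partner genes were named if past the threshold, otherwise up to 3 per list without overlap between groups with the smallest p. All 35 members matched a RefSeq gene by Entrez ID, with 0 symbols changed. Scripts were tested on simulated data. Alternatives were other pseudocounts, filters, normalisations, probe set choices, variance models, a replicate block, and fits with 1 array left out. With so few arrays, their number limits the precision of each value.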

Additional observations from a re-analysis of the deposited data

How the results depend on the processing

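Under the 16 alternatives 0 genes and 0 members passed the limma threshold, with smallest adjusted p from 0.788 to 1 and 110 to 482 genes at an unadjusted p under 0.05. The direction held under all alternatives that could be run for 11 of the 20 members tested. Among them were Itga7, Itga10, Itgb5, Lamb1, Itgav, Itga2 and Itga8. Itga7 has no value without shared-sequence suffix probe sets or among the brightest 40% of genes. Except for Itga8, the members just named had groups that did not overlap, so leaving out 1 array could not turn their direction. Other filters, the fit without trend and every probe set on its own do not change the difference of a brightest probe set. The median over the members was -0.089 with no filter, -0.21 with median centring and -0.14 with the replicate block, and -0.25 to -0.099 when 1 array was left out. Members lower in TNF-LTBR numbered 20 of 35 with no filter (47.8% of all genes) and 9 of 13 among the brightest 40% (53%). With every probe set on its own, 31 of 45 probe sets were lower (49.3%). Members above all controls numbered 4 of 35 with no filter (8.60% of all genes) and 1 of 13 among the brightest 40% (6.14%), and with every probe set on its own 4 of 45 probe sets were (7.68%). Below all controls were 2 members among the brightest 40% (6.35%) and 8 of 45 probe sets (6.16%). Leaving out 1 array gave 2 to 4 members above (10.2% to 26.7% of all genes) and 5 to 12 below (10.3% to 27%), which mixes comparisons of 2 against 2 and 1 against 3 arrays. Directions turned for Itgb3 (0.021 with the replicate block), Lamb2 (0.0073 with array quality weights, 0.093 with the block) and Itga2b (-0.014 with median centring, -0.028 with the block). Leaving out each array gave -0.30 to 0.024 for Lama5, -0.35 to 0.19 for Lamc1, -0.25 to 1.21 for Lama4, -0.53 to 0.11 for Itgb3, -0.13 to 1.44 for Itga6, -0.48 to 0.30 for Lamb2, -0.028 to 0.071 for Itga2b, -1.29 to 0.53 for Lama2 and -0.75 to 0.21 for Itga1, and, with no change of direction, -2.0 to -0.66 for Itga8 and 0.066 to 1.16 for Itgb8 (1.02 with the block, limma adjusted p 1). A fit with 1 TNF-LTBR array assumes that it varies like the controls. The causes of these changes were not tested. Titles share replicate numbers 1 and 2. The correlation of deviations between same-numbered arrays was 0.121 for number 1 and -0.803 for number 2, so the numbers were not taken as pairs. Control array 2 with TNF-LTBR array 1 gave 0.803. The 2 TNF-LTBR arrays deviate by equal and opposite amounts from their mean, so -0.803 and 0.803 are 1 result. The block left 0 calls and takes control replicate 3, which has no partner, out of the comparison. Dim members have no detection call, and the number of arrays limits what can be seen.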
